A study of Mus musculus with 70 samples.

Results

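ST2+ CD44hi Tregs of the colon were set against ST2+ CD44hi Tregs of the abdominal visceral adipose tissue (VAT) of the same mice. The 8 libraries compared, 3 from colon and 5 from VAT, were chosen by their labels and by a column total of over 1000000 counts, out of 70 libraries in all. Colon ST2+ libraries of mice 2 and 5, with totals of 3582 and 62333 counts, fell below that total and were left out, so that colon is represented by mice 1, 3 and 4 and VAT by mice 1 to 5. All 5 mice were males that carried the allele Foxp3tm4(YFP/icre)Ayr on the background B6.129(Cg), aged 16.6 to 18.6 weeks, in which a YFP and Cre reporter sits at the Foxp3 locus. Every one of the 8 libraries was made by SMART-Seq v4 from 220 sorted cells that were live, CD4+, YFP+ and CD45.2+, negative for markers of other lineages including CD11b and CD8, and both ST2+ and CD44hi. The 10 libraries of ST2- CD44hi Tregs from the same tissues and mice, 5 per tissue, served as a second tissue comparison. The colon ST2- libraries also came from 220 cells each, but the VAT ST2- libraries of mice 1 to 5 came from 220, 93, 192, 118 and 135 cells. Colon was incubated with DTT and EDTA before collagenase IV, whereas VAT received collagenase IV and red cell lysis without the DTT and EDTA steps, so that tissue of origin and preparation cannot be told apart.

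Regulatory T cells (Tregs) carry the transcription factor Foxp3 and restrain immune responses. ST2, encoded by Il1rl1, is the receptor for IL-33, an alarm cytokine released by stromal and epithelial cells. ST2+ Tregs are found in both tissues. By flow cytometry, the study found the ST2+ share of Tregs highest in VAT and skin, and lower in colon than in blood. Tregs of visceral fat are known for the lipid-handling nuclear receptor PPARγ and a role in metabolic health. Those of the colon are known for trafficking receptors such as GPR15 and for restraint of responses to gut contents.

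Library totals of the 3 colon samples ran from 1407509 to 2158030 counts and those of the 5 VAT samples from 1535947 to 2504324. Despite similar totals, between 16258 and 19119 genes had a count in colon and between 12232 and 14618 in VAT. Levels below are CPM, the counts of a gene relative to its library total, scaled by the trimmed mean of M-values (TMM), and fold changes come from quasi-likelihood fits in edgeR, with p-values adjusted after Benjamini and Hochberg over 13179 protein-coding genes. A differentially expressed gene (DEG) changed by at least 1.5-fold at an adjusted p of at most 0.05. A count of 3 reads, taken as the floor of detection, equals 1.44 to 2.21 CPM in the colon libraries and 1.22 to 1.92 CPM in the VAT libraries, and this floor covers counting error only. In bulk libraries, fewer cells of a type and less RNA per cell cannot be told apart.

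The genes that define the sort were similar in both tissues. Foxp3 stood at 160, 171 and 158 CPM in colon mice 1, 3 and 4 and at 157, 159, 172 and 150 CPM in VAT mice 1, 2, 4 and 5, with VAT mouse 3 above all of these, a log2 difference (colon minus VAT) of -0.11 with an adjusted p of 0.81. Cd4, Cd3e and Cd44 ranged from 305 to 399, from 328 to 440 and from 623 to 722 CPM in colon, and from 320 to 419, from 380 to 492 and from 525 to 755 CPM in VAT. Cd8a had no count in any of the 8 libraries. Il1rl1 itself stood at 685, 587 and 528 CPM in colon and at 1031, 1177, 1322, 1156 and 1212 CPM in VAT. Its groups did not overlap, but the log2 difference of -0.98 ± 0.44 (SE) did not pass the test (adjusted p = 0.21).

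Itgam, which encodes the CD11b of myeloid cells that the sort excluded, stood at 5.75, 5.9 and 0.573 CPM in colon and at 0 in every VAT library, and did not pass the test (adjusted p = 0.09).

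Summed markers of several other cell types lay higher in the colon ST2+ libraries, although none passed the test after adjustment. The summed level of 20 macrophage and monocyte markers, with Apoe the most abundant, was 2654, 2449 and 2487 CPM in colon mice 1, 3 and 4, against 336.8, 627.6, 229.4, 245.3 and 354.7 CPM in VAT mice 1 to 5. Between 18 and 20 of these markers were detected per colon library and between 8 and 16 per VAT library. In ST2- Tregs the same sum was 83.4 to 483.3 CPM in colon and 49.58 to 347.4 CPM in VAT, and those groups overlapped.

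Epithelial and stromal RNA varied far more between the colon libraries. The summed level of 23 epithelial markers was 378.7 CPM in mouse 1, 5644 CPM in mouse 3 and 1829 CPM in mouse 4, against 120 to 182.5 CPM in VAT, where 12 of the 23 markers were at 0 in every ST2+ library. The goblet cell protein Zg16 reached 647 CPM in colon mouse 3, but 18.7 and 35 CPM in mice 1 and 4. Of the 12 fibroblast and stroma markers, the sum was 1986, 2365 and 570 CPM in colon and 8.27 to 132 CPM in VAT. Adipoq, which defines adipocytes, had no count in any of the 8 libraries.

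Dendritic cell and MHC class II markers summed to 2363 to 2610 CPM in colon and to 268 to 652.2 CPM in VAT. B and plasma cell markers, led by the antibody-joining chain Jchain, summed to 1656, 217.5 and 2018 CPM in colon and to 97.7, 53.9, 35.4, 77.2 and 1314 CPM in VAT, so that VAT mouse 5 lay within the colon range. Each marker sum was compared by a two-sided exact permutation test over libraries, in which 3 against 5 libraries allow 56 divisions and a smallest p of 0.0357. The macrophage, dendritic, epithelial, stromal and mast cell sums each reached that p and were 7.53-, 5.80-, 10.6-, 37.3- and 20.9-fold higher in colon. After adjustment over the 11 marker lists each stood at 0.0786. With so few libraries, a list could pass after adjustment only if most of the 11 reached the smallest p, so that not passing says little. Of the 95 marker genes tested singly, 30 were higher DEGs in colon and 0 were lower. The part of this RNA in the differences below was not tested as a cause, and each group of genes is therefore given with its values in a fit that held the summed macrophage and epithelial levels as covariates.

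**Figure D1:**
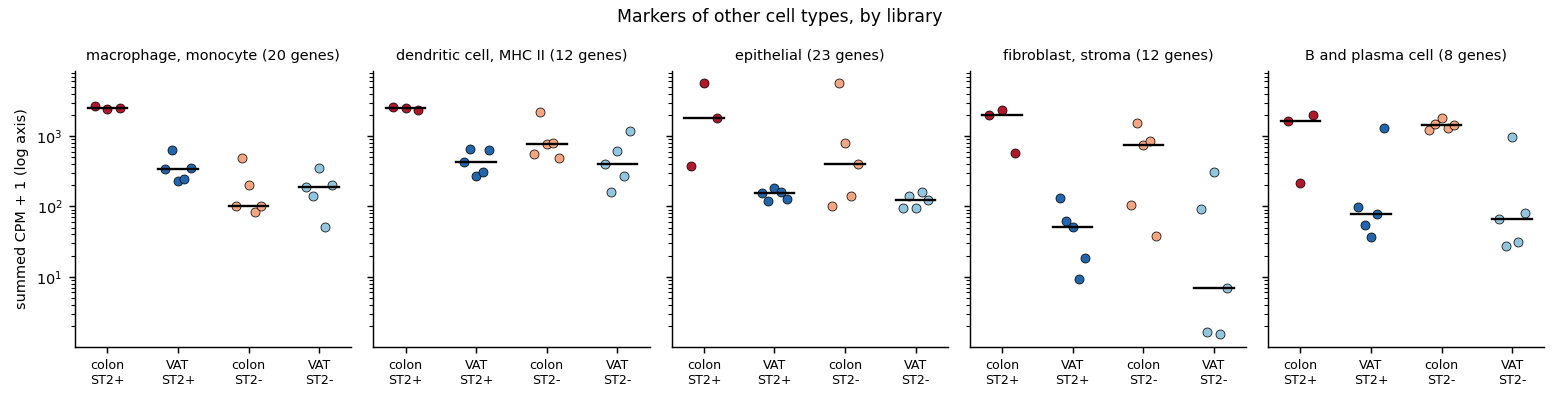
Summed TMM-scaled CPM plus 1 (log axis) of the markers of 5 other cell types in every colon and VAT library of ST2+ and ST2- Tregs. Points are libraries and lines are group medians: the 3 colon ST2+ libraries lay above all VAT ST2+ libraries for the macrophage, dendritic, epithelial and stromal lists, whereas the B and plasma cell list overlapped.

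Colon and VAT ST2+ Tregs differed by 529 DEGs, or 4.01% of the genes tested. Of these, 447 (3.39%) were higher and 82 (0.622%) were lower in colon, so that 84.5% of the DEGs were higher. With mouse as a block, the counts became 608 higher and 133 lower, and 410 of the 447 and 81 of the 82 were called in both fits. Each call rested on few libraries. Leaving out 1 library at a time gave 208 to 407 DEGs, and every library but VAT mouse 1 moved the total by more than 1.5 times (284, 208 and 329 DEGs without colon mice 1, 3 and 4; 279, 310, 309 and 340 without VAT mice 2, 3, 4 and 5). In every one of the 8 such fits, 110 higher and 15 lower DEGs were called.

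The higher DEGs were of 2 kinds, separated by their level in ST2+ Tregs of the spleen, which were in neither group (a division chosen after the values were seen). Of the 447, 190 (42.5%) averaged under 1 CPM in spleen ST2+ Tregs and 180 (40.3%) averaged 10 CPM or more, with 77 between. Over all genes tested, these shares were 15.1% and 68.8%. Of the 190 genes low in spleen, 56, 120 and 14 had their highest colon value in mice 1, 3 and 4. Mouse 3 had the most epithelial and the most stromal marker RNA of the colon libraries. Mouse 1 had less epithelial but more stromal marker RNA than mouse 4. The 180 genes present in spleen were divided 51, 69 and 60 among mice 1, 3 and 4. With macrophage and epithelial levels as covariates, 4 of the 190 and 60 of the 180 were still called. The levels of the stromal, dendritic, B cell and other marker lists were not covariates, and their part was not tested. The median log2 difference went from 7.97 to 5.81 for the former and from 1.71 to 1.63 for the latter. These are fitted values, and 148 of the 190 and 10 of the 180 had no count in any VAT library: with such genes set to their bound at the floor of 3 counts, the medians without covariates were 3.66 and 1.67. Of the 82 lower DEGs, 81 averaged 10 CPM or more in spleen, and their median log2 difference was -0.99, or -0.93 with the covariates.

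**Figure D2:**
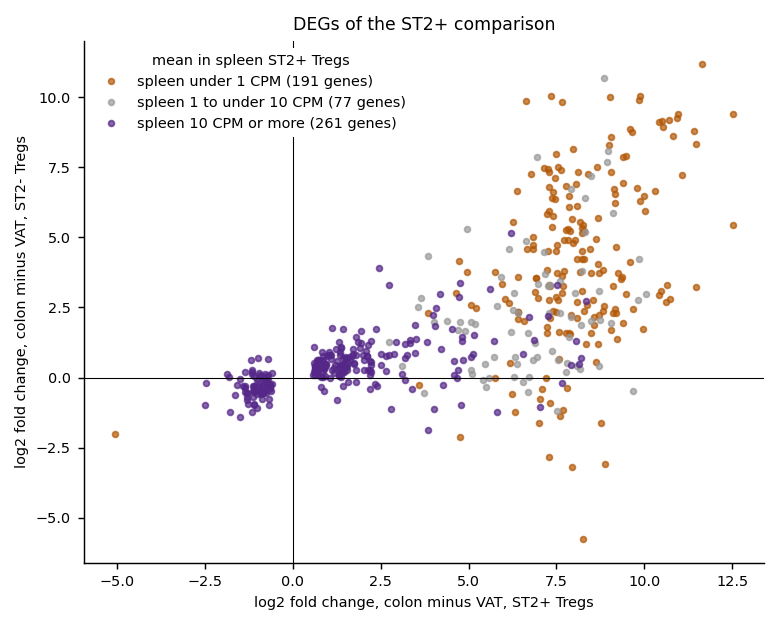
The 529 DEGs of the ST2+ comparison, with the colon minus VAT log2 difference in ST2+ Tregs on the horizontal axis and that in ST2- Tregs on the vertical axis, coloured by the mean level in spleen ST2+ Tregs (under 1, 1 to under 10, and 10 CPM or more). The 190 higher DEGs that were under 1 CPM in spleen spread to the right with a median fitted log2 difference of 7.97 (3.66 with genes at 0 in VAT set to their bound), whereas the lower DEGs had a median of -0.99.

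Receptors that guide migration and transcription factors of resting lymphocytes were among the clearest genes higher in colon. Of 21 chemokine and trafficking receptors tested, 6 rose (Gpr183, Gpr15, Cxcr5, Ackr3, Ccr7 and Ccr10), 1 fell (Ltb4r1) and 14 did not pass. Their median log2 difference was 0.28 against 0.084 over all genes. For this and the other gene lists, the shares over all genes tested were 3.39% higher and 0.622% lower. Gpr183 (chr14:121952551-121965195, minus strand, GRCm38), which encodes the EBI2 receptor for oxysterols, stood at 432, 322 and 433 CPM in colon and at 137, 99.7, 71.2, 68 and 148 CPM in VAT. All colon values lay above all VAT values, as they did for 8.38% of the genes tested. The log2 difference was 1.92 ± 0.23 (SE), or 3.78-fold, with an adjusted p of 6.7e-08.

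Gpr15, a receptor that brings T cells to the large intestine, lay at 323, 256 and 288 CPM in colon against 39.3, 19.5, 0.919, 15.2 and 14.7 CPM in VAT. Its lowest colon library was several times above its highest VAT library (log2 difference 3.99 ± 0.60, adjusted p = 7.9e-06). Cxcr5, which leads lymphocytes into B cell follicles, was at 26.4, 5.16 and 11.5 CPM in colon and had no count in VAT, a level at least 7.47-fold higher in colon against the floor of 3 counts. Gpr183, Gpr15 and Cxcr5 were called without any 1 library and with the covariates.

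Of 15 genes of quiescence and recirculation, 6 rose (Klf2, Satb1, Id3, Bach2, Foxo1 and Ccr7) and 1 fell (S1pr4), with a median log2 difference of 0.61. Klf2 (chr8:72319033-72321656, plus strand), a zinc finger factor that keeps T cells resting and drives their egress receptor S1pr1, stood at 339, 310 and 343 CPM in colon and at 122, 129, 169, 83.2 and 150 CPM in VAT. No VAT library came near the colon range, and the log2 difference was 1.34 ± 0.19 (adjusted p = 2.0e-06). S1pr1 itself did not follow: it was at 244, 254 and 314 CPM in colon and 333, 295, 157, 204 and 127 CPM in VAT, with overlap and an adjusted p of 0.6.

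Satb1, a chromatin organizer of thymic Treg development, was at 187, 58.2 and 103 CPM in colon and at 30.8, 0.573, 8.73, 6.43 and 8.95 CPM in VAT (log2 difference 3.32 ± 0.50, adjusted p = 7.9e-06). VAT mouse 1 stood above the other VAT libraries but below colon. Klf2 and Satb1 were called without any 1 library and with the covariates. The other members were less firm. Id3, an inhibitor of E proteins, was at 121, 201 and 55 CPM in colon and 0 to 60.2 CPM in VAT (adjusted p = 0.0081, or 0.118 without colon mouse 3). Bach2, a repressor of effector genes, was at 11.5, 11.8 and 26.4 CPM in colon and 0 to 9.73 CPM in VAT (0.016, or 0.125, 0.051 and 0.0501 without colon mouse 4, VAT mouse 2 and VAT mouse 3). S1pr4, a sphingosine-1-phosphate receptor, was lower in colon at 38.4, 12.5 and 13.8 CPM against 29.4 to 89.2 CPM, with overlap (0.018, or 0.132 and 0.104 without colon mice 3 and 4).

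**Figure D3:**
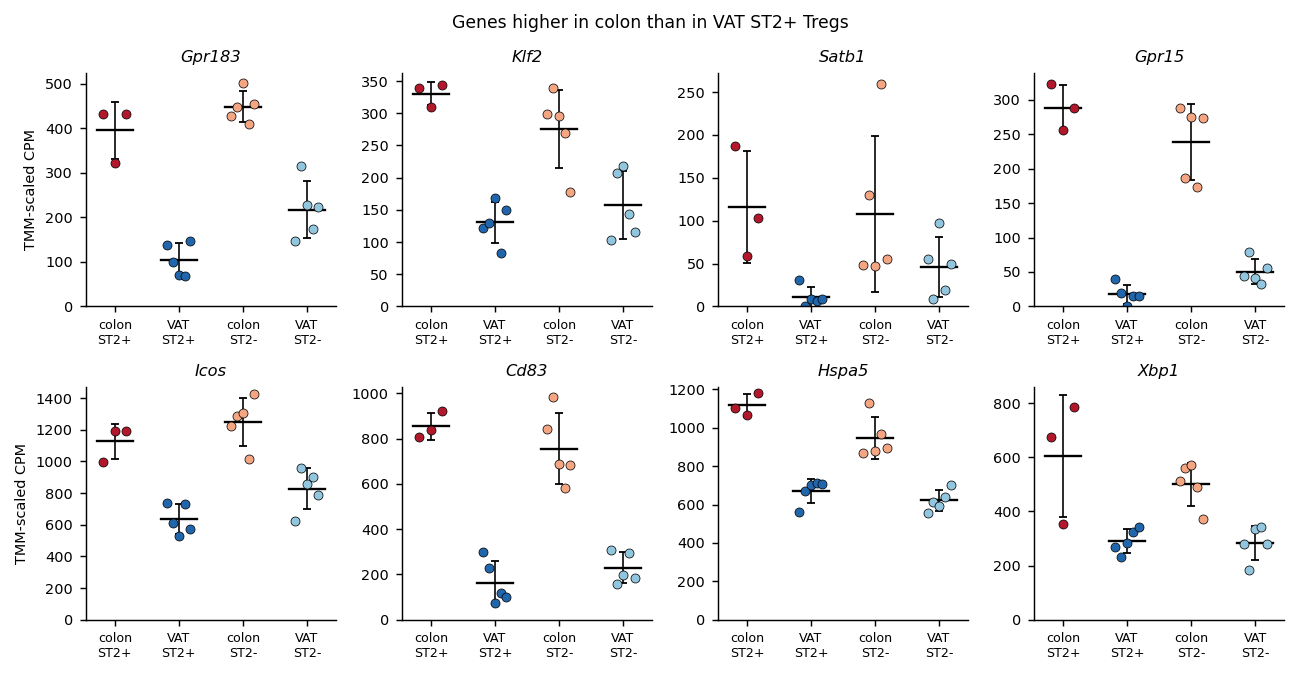
TMM-scaled CPM (linear axis from 0) of 8 genes higher in colon ST2+ Tregs, by library, in colon ST2+, VAT ST2+, colon ST2- and VAT ST2- Tregs. Points are libraries, lines are means and bars are SD: for each of the 8 genes the 3 colon ST2+ libraries lay above all 5 VAT ST2+ libraries.

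Icos and Cd28, a pair of costimulatory receptors, were higher in colon. Icos, which supports Treg survival and IL-10 output, was at 999, 1192 and 1191 CPM in colon and at 739, 608, 527, 728 and 573 CPM in VAT, without overlap (log2 difference 0.83 ± 0.17, adjusted p = 0.0014). It was the single higher gene among 14 Treg identity genes, of which 1 fell (Il2ra) and 12 did not pass. Among those 12, the inhibitory receptor Ctla4 spanned 936 to 1247 CPM in colon and 798 to 1459 CPM in VAT, and the Helios gene Ikzf2 spanned 866 to 1215 and 769 to 1170 CPM. Cd28, the principal costimulatory receptor of T cells, stood at 1277, 1463 and 1385 CPM in colon and at 628 to 797 CPM in VAT (0.91 ± 0.13, adjusted p = 6.9e-06). Icos and Cd28 were called without any 1 library and with the covariates.

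In the TNF superfamily, 3 of 16 genes rose and 0 fell. Tnfrsf9 (4-1BB), a receptor of activated T cells, was at 710, 763 and 823 CPM in colon and at 341, 175, 271, 370 and 339 CPM in VAT (log2 difference 1.35, adjusted p = 0.0043). Tnfsf8, the ligand of CD30, was at 521, 214 and 499 CPM in colon and at 29.8 to 175 CPM in VAT (1.94, adjusted p = 0.0012). The death receptor Fas was at 70.5, 54.6 and 127 CPM in colon and 8.27 to 45.4 CPM in VAT, and its call was lost without colon mouse 4 (adjusted p 0.0013, then 0.0668). With the covariates, 2 of the 3 were called, Tnfsf8 and Fas.

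Cd96, Nt5e, Cldnd1 and Rel were higher in colon. Cd96, a receptor for nectin-family ligands, was at 321, 274 and 438 CPM in colon and at 138, 68.8, 21.1, 118 and 15.3 CPM in VAT (log2 difference 2.24 ± 0.27, adjusted p = 6.7e-08). The ecto-nucleotidase Nt5e (CD73), an effector of adenosine-mediated suppression, was at 438, 220 and 537 CPM in colon and 49.6 to 273 CPM in VAT (1.37, adjusted p = 0.00083), with VAT mouse 1 above colon mouse 3. Cldnd1, which encodes a claudin-domain membrane protein, was at 544, 587 and 554 CPM in colon and 164 to 243 CPM in VAT (1.52 ± 0.18, adjusted p = 6.7e-08). The NF-κB subunit Rel, needed for Treg development, was at 592, 395 and 572 CPM in colon and 190 to 294 CPM in VAT (1.08, adjusted p = 0.0024), the 1 call among 20 tissue Treg transcription factors. Timp2, Lax1, Hmgn1, Chchd10 and Gngt2, also among the 12 higher DEGs with the smallest adjusted p, rose by 2.22, 2.11, 2.52, 2.93 and 4.08 on the log2 scale.

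Several strongly higher genes are also known from myeloid or stromal cells. Ctss, a protease of antigen processing, was at 353, 358 and 422 CPM in colon and 30.8 to 189 CPM in VAT (log2 difference 2.02 ± 0.24, adjusted p = 6.7e-08). Cd83, found on activated dendritic cells and on Tregs, was at 808, 836 and 923 CPM in colon and at 300, 228, 71.7, 118 and 102 CPM in VAT (2.38 ± 0.37, adjusted p = 1.2e-05). Cd74, the invariant chain of MHC class II, was at 834, 804 and 817 CPM in colon and 104 to 346 CPM in VAT (2.07 ± 0.31, adjusted p = 7.9e-06). Each was without overlap between tissues, and the macrophage marker sums beside them were 2449 to 2654 CPM in colon and 229.4 to 627.6 CPM in VAT. All of Ctss, Cd83 and Cd74 were called with the macrophage and epithelial covariates. The dendritic cell and MHC class II list, which holds Cd74, and the B cell list were not covariates. That fit therefore cannot speak to RNA from those cells.

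Adamdec1, a protease gene of gut stroma and macrophages, was at 546, 440 and 91.1 CPM in colon and had no count in VAT, at least 187-fold higher against the floor. Kit, typical of mast cells and innate lymphoid cells, was at 98.8, 50.9 and 40.1 CPM in colon and at 0 in VAT, at least 33.0-fold higher. Apoe, the most abundant macrophage marker, was at 608, 739 and 666 CPM in colon and 40 to 116 CPM in VAT. Its call was lost without colon mouse 3 (adjusted p 0.016, then 0.061). Of the marker lists, 12 of 18 epithelial, 9 of 12 stromal, 4 of 12 dendritic and MHC class II and 3 of 18 macrophage genes were called higher.

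Some chaperones and folding enzymes of the endoplasmic reticulum (ER) were higher in colon. Of 37 genes of ER folding and the unfolded protein response, 6 rose (Pdia4, Hspa5, Xbp1, Hsp90b1, Pdia6 and Dnajc3), 0 fell and 31 were not called. Over all genes tested, 3.39% rose. The list was assembled after some of its members had been seen to differ. A positive log2 difference was found for 34 of the 37, and for 7375 of all 13179 genes tested. The median was 0.34 against 0.084 over all genes. Hspa5 (chr2:34771970-34777547, plus strand), the abundant ER chaperone BiP, stood at 1102, 1065 and 1184 CPM in colon and at 562, 670, 702, 712 and 708 CPM in VAT. The gap between the groups exceeded the spread within either (log2 difference 0.74 ± 0.12, adjusted p = 2.2e-05), and ST2- Tregs showed a difference of 0.61. Of the 6, 3 (Pdia4, Hspa5 and Xbp1) were called without any 1 library and with the covariates.

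The start regions of 4 of these 6 genes hold the ER stress response element, the paired sequence through which ATF6 is known to act on chaperone genes. They are shown because the promoters of the higher ER genes can be compared letter by letter. In RefSeq sequence of GRCm38.p6, 5′ to 3′ on the strand of the gene, with the element, CCAAT and CCACG separated by 9 bases of any kind, in capitals:
Dnajc3, chr14:118937797-118937875, plus strand: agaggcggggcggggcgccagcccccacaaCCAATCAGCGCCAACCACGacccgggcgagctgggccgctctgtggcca
Hsp90b1, chr10:86705608-86705686, minus strand: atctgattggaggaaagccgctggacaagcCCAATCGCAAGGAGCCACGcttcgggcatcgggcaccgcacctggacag
Hspa5, chr2:34772020-34772048, plus strand: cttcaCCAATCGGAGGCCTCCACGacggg
Pdia6, chr12:17266461-17266539, plus strand: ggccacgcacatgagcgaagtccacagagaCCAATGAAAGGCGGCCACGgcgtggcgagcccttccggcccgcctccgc
Hsp90b1 holds 2 copies in its window, of which 1 is shown. The element shown ended 86, 193, 46 and 79 bases before the annotated start of Dnajc3, Hsp90b1, Hspa5 and Pdia6, and the Hspa5 copy lies in an exon of a longer annotated transcript. Both strands of 7 motifs were searched in windows from 250 bases before to 50 after each gene start. The element was present in 39 of 32851 windows (0.119%), and in 9 of the 30 listed ER genes with a window, of which 5 (Calr, Canx, Creld2, Derl3 and Syvn1) were not DEGs. Windows were found for 330 of the 447 higher DEGs (73.8%), too few for a comparison over all higher DEGs. A match describes these letters, not a bound factor.

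Xbp1, Pdia4 and Hsp90b1 varied more between the colon libraries. Xbp1, a transcription factor of the unfolded protein response, stood at 674, 354 and 786 CPM in colon and at 270, 232, 283, 323 and 344 CPM in VAT, with colon mouse 3 just above the VAT range (log2 difference 1.06 ± 0.18, adjusted p = 0.00012). Pdia4, a disulfide isomerase, was at 503, 296 and 516 CPM in colon and 124 to 272 CPM in VAT (1.09 ± 0.17, adjusted p = 9.3e-06). Hsp90b1, the ER form of HSP90, was at 566, 476 and 735 CPM in colon and 337 to 443 CPM in VAT (0.69 ± 0.15, adjusted p = 0.0033, or 0.0855 without colon mouse 4).

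Xbp1 and ER chaperones are also abundant in plasma cells, and their order over the libraries was partly that of Jchain. Jchain was at 1070, 148 and 1376 CPM in colon mice 1, 3 and 4, and Xbp1, Pdia4 and Hsp90b1 were each lowest in mouse 3 of the colon libraries. VAT mouse 5, with Jchain at 966 CPM, held the highest VAT values of Xbp1, Pdia4 and Hsp90b1. Hspa5 was also lowest in mouse 3 of the colon libraries, but its highest VAT value was not in mouse 5. Colon mouse 3 had 1065 CPM of Hspa5 and 360 CPM of Pdia6, above the highest VAT values of 712 and 271 CPM. In colon mouse 3, Xbp1, Pdia4 and Hsp90b1 lay above their VAT ranges as well. Its Jchain of 148 CPM was the lowest in colon, but lay above the 1.84 to 48.2 CPM of VAT mice 1 to 4. The part of plasma cell RNA in these differences was not tested. Dnajc3, an ER co-chaperone, was the least firm, at 286, 202 and 358 CPM against 107 to 219 CPM with overlap (adjusted p = 0.042, called in 3 of the 8 fits without 1 library).

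Gut-associated and cytokine genes gave few calls. Of 20 gut Treg genes, 2 rose (Gpr15 and Ctsl) and 0 fell, with a median log2 difference of 1.57, and 4 rose with mouse as a block. Ctsl, a lysosomal protease, was at 191, 267 and 94.6 CPM in colon and at 15.4, 0.573, 29.4, 17.5 and 0 CPM in VAT (3.83 ± 0.73, adjusted p = 0.00055). Ahr, the receptor for dietary and microbial ligands, was at 144, 125 and 105 CPM in colon and at 57.5, 27.5, 59.8, 36.8 and 27.5 CPM in VAT. Its groups did not overlap, but the log2 difference of 1.57 ± 0.49 missed the threshold (adjusted p = 0.052) and passed it with mouse as a block (0.0399).

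Il4 was the single call among 7 helper cytokines, at 24.9, 22.1 and 22.4 CPM in colon and 0 to 2.3 CPM in VAT (log2 difference 4.96 ± 1.44, adjusted p = 0.038), and was called in 1 of the 8 fits without 1 library. The interleukin-1 receptor Il1r1, at 12.5, 15.5 and 0 CPM against 0 in every VAT library, passed at 0.044 and did not with mouse as a block (0.0755).

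Il2ra was the leading gene higher in VAT among the Treg identity genes. It encodes CD25, the high-affinity chain of the IL-2 receptor (chr2:11642807-11693193, plus strand), and stood at 428, 412 and 387 CPM in colon and at 628, 605, 794, 746 and 1245 CPM in VAT. The 3 colon values were nearly equal and all below VAT, as they were for 3.07% of the genes tested. The log2 difference was -0.97 ± 0.19 (adjusted p = 0.00084), called in each of the 8 fits without 1 library and with the covariates (0.048).

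Plin2, Hilpda and Cpt1a were lower in colon. Plin2, which coats lipid droplets (chr4:86648386-86670060, minus strand), was at 59, 169 and 72.2 CPM in colon and at 405, 774, 484, 395 and 713 CPM in VAT, a log2 difference of -2.48 ± 0.60 (adjusted p = 0.011). Every VAT library lay above every colon library, but the call was lost without colon mouse 1 or 4 (0.0762 and 0.0626) and with the covariates (0.12). Hilpda, a brake on droplet lipolysis, was at 198, 215 and 247 CPM in colon and at 312, 590, 444, 412 and 594 CPM in VAT (-1.09 ± 0.26, adjusted p = 0.0093, or 0.0578 without colon mouse 1). Cpt1a, the gate for fatty acid entry into mitochondria, was at 68.1, 97.3 and 68.8 CPM in colon and 142 to 207 CPM in VAT (-1.16 ± 0.34, adjusted p = 0.037), and was called in 2 of the 8 fits without 1 library. Over the 27 genes of lipid uptake, storage and synthesis, 2 rose (Scd2 and Abcg1) and 2 fell (Plin2 and Cpt1a), with a median log2 difference of -0.02.

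Of 16 fat Treg genes, 2 fell (Plin2 and Gm2a), 0 rose and 14 did not pass, with a median log2 difference of -0.61. Pparg, the defining nuclear receptor of fat Tregs, was at 44.1, 45.7 and 39 CPM in colon and at 178, 328, 272, 206 and 309 CPM in VAT. Its lowest VAT library lay well above its highest colon library, but the log2 difference of -2.59 ± 1.20 did not pass the test (adjusted p = 0.23). Ccr2, a chemokine receptor of tissue Tregs, was at 317, 543 and 492 CPM in colon and 760 to 1147 CPM in VAT (-1.07 ± 0.50, adjusted p = 0.24). By limma voom with quality weights, which the study used, Ccr2 was called (-0.99, adjusted p = 0.0053). Areg, a growth factor for tissue repair, overlapped at 441 to 546 and 483 to 746 CPM (adjusted p = 0.75).

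**Figure D4:**
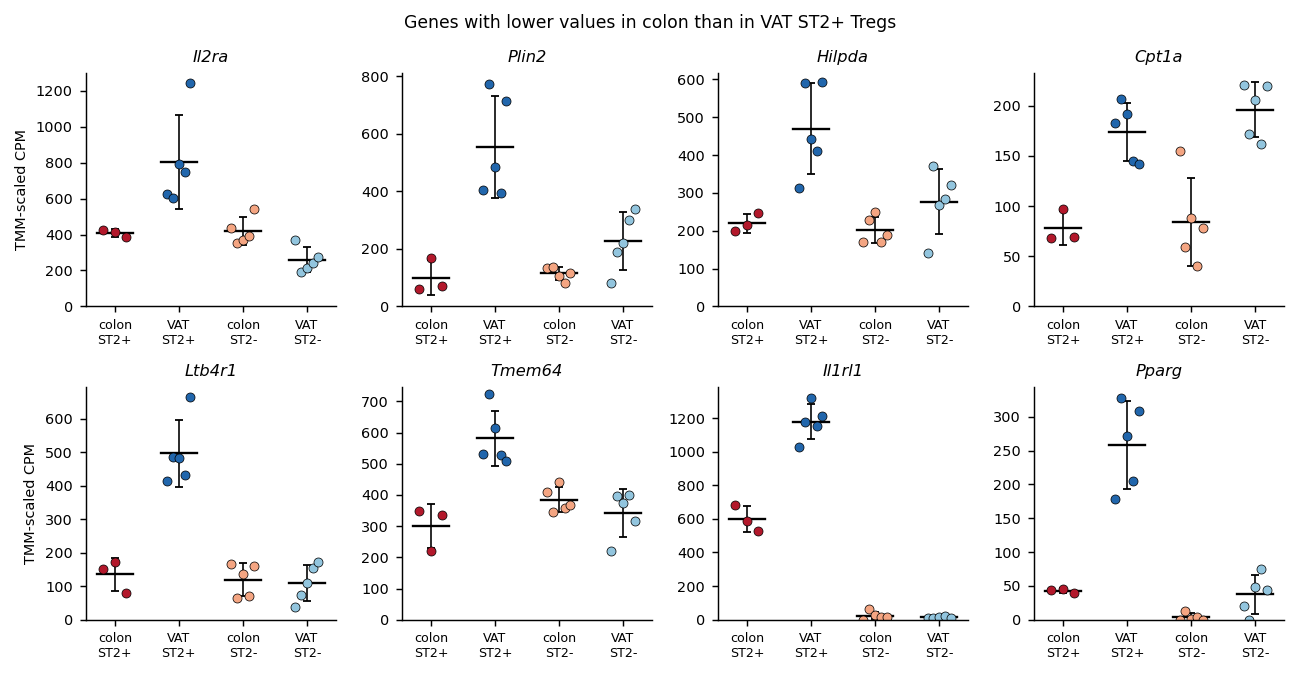
TMM-scaled CPM (linear axis from 0) of 8 genes with lower levels in colon ST2+ Tregs, by library, in the 4 groups of colon and VAT Tregs. Points are libraries, lines are means and bars are SD: in each panel the 3 colon ST2+ libraries lay below all VAT ST2+ libraries, and Il1rl1 and Pparg are shown although they did not pass the test.

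Ltb4r1 and Cxcl3 were lower in colon, with calls that were lost in most fits without 1 library. Ltb4r1, the receptor for the lipid attractant leukotriene B4, was at 152, 172 and 80.8 CPM in colon and at 415, 487, 483, 433 and 665 CPM in VAT (-1.88 ± 0.55, adjusted p = 0.038), and was called in 2 of the 8 fits without 1 library. Cxcl3, a neutrophil chemokine, was at 3.83, 14.7 and 4.01 CPM in colon and at 92.8, 235, 354, 250 and 313 CPM in VAT (-5.06 ± 1.54, adjusted p = 0.048). It was the 1 lower DEG averaging under 1 CPM in spleen ST2+ Tregs and was called in 0 of those 8 fits.

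The lower DEGs with the smallest adjusted p were mostly genes of moderate level in every library. Tmem64, a regulator of calcium and Wnt signalling, was at 348, 219 and 335 CPM in colon and 508 to 723 CPM in VAT (log2 difference -0.95 ± 0.17, adjusted p = 0.00024). Plec, a cytoskeletal linker, was at 291, 379 and 297 CPM in colon and 548 to 844 CPM in VAT (-1.06, adjusted p = 0.00043). Ubash3b, a phosphatase that dampens T cell receptor signalling, was at 115, 147 and 158 CPM in colon and 270 to 458 CPM in VAT (-1.34). Tmem64 and Plec were called with the covariates and Ubash3b was not. Usp38, Crybg1, Impdh1, Gimap8 and Slfn2, for which the log2 differences were -1.41, -1.12, -1.30, -1.28 and -0.83, also had every colon library below every VAT library.

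Other groups of Treg genes gave no calls. The 8 genes of the ST2 core signature, a list the study drew from these libraries, gave 0 calls by edgeR and 4 at an unadjusted p under 0.05, with a median log2 difference of -0.25. Gata3, the transcription factor that drives ST2 expression, was at 451, 439 and 343 CPM in colon and 456 to 590 CPM in VAT (-0.35, adjusted p = 0.20), and Klrg1, an inhibitory lectin receptor, overlapped at 713 to 901 and 768 to 1199 CPM. The 20 T cell receptor-induced and immediate early genes, 11 NF-κB feedback genes, 16 cell cycle genes, 16 glycolysis genes and 13 clock genes gave 0 calls each, with medians of -0.06, -0.06, -0.50, -0.11 and 0.30. At the size of this comparison, edgeR recovered 32% of simulated 2-fold and 64% of simulated 4-fold changes, so that a gene not called may still differ.

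The tissue comparison in ST2- Tregs, made in libraries that the ST2+ comparison did not use, gave 238 DEGs (1.81%), 163 higher (1.24%) and 75 lower (0.569%) in colon, with 129 and 146 DEGs without colon ST2- mouse 2 and VAT ST2- mouse 2. Of the DEGs higher in colon, 68 were shared, which is 15.2% of the ST2+ and 41.7% of the ST2- calls, and of those lower 10 were shared (12.2% and 13.3%). Of the 447 higher ST2+ DEGs, 400 had the same sign in ST2- Tregs, with a median log2 difference there of 1.70, and of the 82 lower, 64 had the same sign, with a median of -0.32. Gpr183, Klf2, Gpr15, Cd83, Xbp1 and Cpt1a were called in both, in the same direction. The ST2- libraries held RNA of other cell types as well. Their B and plasma cell marker sums were 1220 to 1799 CPM in colon and 26.7 to 983 CPM in VAT, without overlap. Their epithelial sums were 101 to 5635 CPM in colon and 92.5 to 160 CPM in VAT. The part of this RNA in the shared calls, and in the ST2- difference of Hspa5, was not tested.

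Whether the tissue difference itself differed between ST2+ and ST2- Tregs was tested by an interaction contrast, which 30 genes passed (0.228%), 22 with a larger (0.167%) and 8 with a smaller (0.0607%) colon minus VAT difference in ST2+ cells. In a fit of the 18 colon and VAT libraries alone, 2 genes passed (Ccr1 and Lair1). Without 1 library the count ranged from 13 (colon ST2+ mouse 4) to 54 (VAT ST2+ mouse 1), with 18 or 19 without colon ST2+ mouse 1 or 3, VAT ST2+ mouse 5 or colon ST2- mouse 5. Il2ra gave the smallest adjusted p. In ST2- Tregs it was at 437, 354, 368, 391 and 544 CPM in colon and at 372, 194, 214, 244 and 274 CPM in VAT. Thus, Il2ra was lower in colon among ST2+ cells and higher in colon among ST2- cells (0.69, adjusted p = 0.0091), and the interaction was -1.66 ± 0.25 (adjusted p = 0.00012).

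Ccr1 and Il10 were higher in colon than in VAT among ST2- Tregs, whereas among ST2+ Tregs every colon library lay below VAT for Ccr1 and the groups overlapped for Il10. Ccr1, a receptor for inflammatory chemokines, was at 242, 179, 302, 58.9 and 336 CPM in colon ST2- and at 0, 0, 15.5, 6.93 and 3.44 CPM in VAT ST2- Tregs. Among ST2+ cells it was at 130, 166 and 113 CPM in colon and 248 to 442 CPM in VAT, so that it was lowest in VAT ST2- Tregs (interaction -6.62, adjusted p = 0.0042). Il10, the suppressive cytokine, followed a like order, at 384 to 811 CPM in colon ST2- and 67.7 to 211 CPM in VAT ST2- Tregs, against 332 to 666 and 259 to 706 CPM in ST2+ Tregs (-2.33, adjusted p = 0.033). Ccr1 was called in all 18 fits without 1 library and Il10 in 8 of them. Fewer cells went into 4 of the 5 VAT ST2- libraries, and the part of cell number in these interactions was not tested.

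Gm2a, a lysosomal lipid-transfer protein among the fat Treg genes, resembled Il2ra in direction. It was at 340, 478 and 392 CPM in colon and 504 to 761 CPM in VAT among ST2+ cells, and at 268 to 560 CPM in colon and 202 to 378 CPM in VAT among ST2- cells (interaction -1.34, adjusted p = 0.0082, or 0.0596 without colon ST2+ mouse 1).

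Itgb1, S1pr1 and Slamf6 had a larger colon minus VAT difference in ST2+ cells. Itgb1, the β1 integrin chain, overlapped between tissues among ST2+ cells, at 440 to 576 and 341 to 766 CPM, but was at 153 to 406 CPM in colon ST2- and 817 to 1323 CPM in VAT ST2- Tregs (interaction 1.65, adjusted p = 0.0044). S1pr1, the egress receptor, was at 97.2 to 318 CPM in colon ST2- and 367 to 530 CPM in VAT ST2- Tregs without overlap (1.41, adjusted p = 0.010, or 0.0972 without colon ST2+ mouse 4). Slamf6, a receptor of less differentiated T cells, was at 210, 230 and 297 CPM in colon and 45 to 177 CPM in VAT among ST2+ cells, and at 298 to 431 CPM in colon and 409 to 671 CPM in VAT among ST2- cells, where the groups overlapped and no call was made (1.38, adjusted p = 0.0044, or 0.0532 without colon ST2+ mouse 4).

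Cd96 was lowest in VAT ST2+ Tregs. It was at 385 to 463 CPM in colon ST2- and 256 to 379 CPM in VAT ST2- Tregs, whereas VAT ST2+ Tregs lay at 15.3 to 138 CPM (1.79, adjusted p = 0.0082, or 0.0744 without colon ST2+ mouse 4). Lair1, an inhibitory collagen receptor shared with myeloid cells, was at 80.1, 44.2 and 16.1 CPM in colon ST2+ and at 0.405, 0, 0, 0 and 0 CPM in VAT ST2+ Tregs, with the opposite order at low levels in ST2- cells (0 to 0.847 and 0 to 29.5 CPM, interaction adjusted p = 0.0044). With 1 count in VAT ST2+ cells, its ratio of 498 had a counting interval from 88.6 to 19740.

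**Figure D5:**
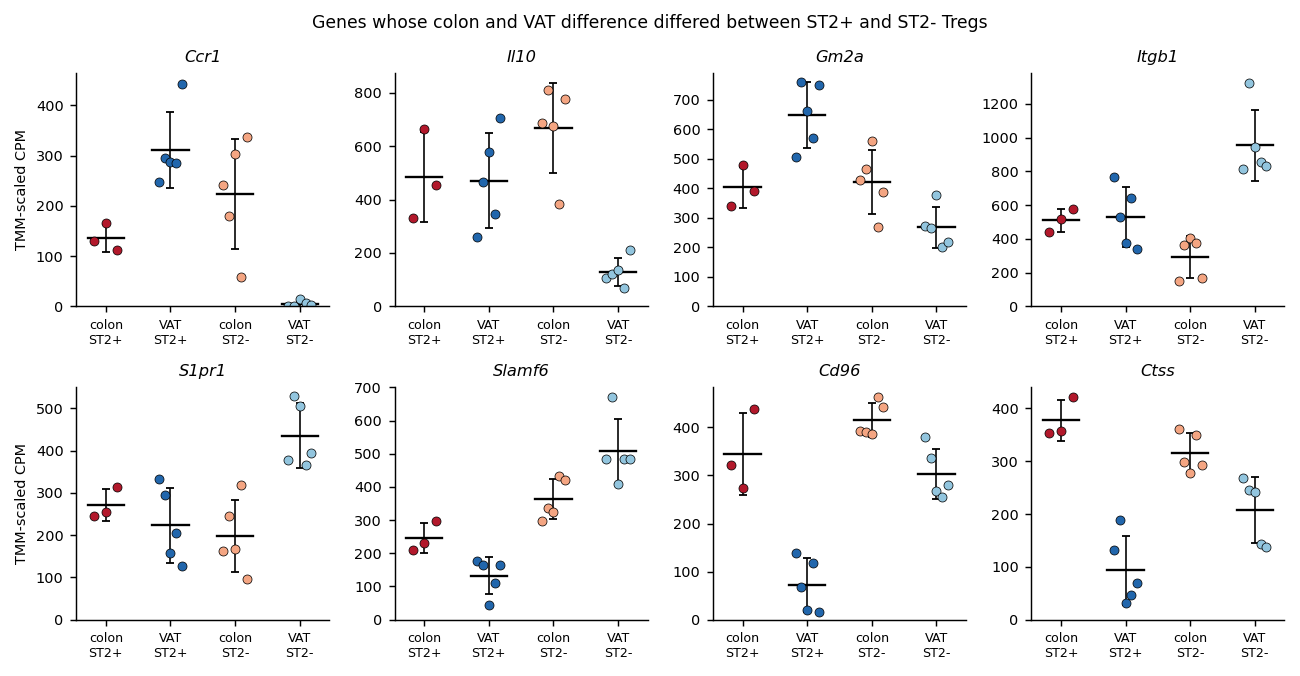
TMM-scaled CPM (linear axis from 0) of 8 genes past the interaction test, by library, in colon ST2+, VAT ST2+, colon ST2- and VAT ST2- Tregs. Points are libraries, lines are means and bars are SD: Ccr1 and Il10 were low in VAT ST2- Tregs alone among the 4 groups, Itgb1 and S1pr1 were highest there, and Cd96 was lowest in VAT ST2+ Tregs.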

How the data were processed

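RNA was sequenced from 70 libraries of sorted Tregs from 5 mice as single reads. The authors deposited counts per gene, made with STAR against GRCm38 and Ensembl 91 and HTSeq-count 0.4.1 (the submitters' processing notes also name CASAVA 1.8.2, FastQC, Picard and SAMtools). The sources used here do not give counting mode and strand, so that overlapping and antisense genes cannot be separated. The members and gene lists were chosen with earlier results of these data known.

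Of 53465 gene IDs, 53360 were found in GENCODE M21 and 21942 were protein-coding. Libraries of over 1000000 counts were kept (67, totals 1304560 to 2759926), and genes with 1 CPM in 10% of them were tested (13179). edgeR 4.0.16 (R 4.3.3) fitted TMM-scaled counts with 14 group terms by quasi-likelihood. The test was checked on simulated data. Pairing comes from the mouse numbers of the labels: deviations of the same mouse correlated at 0.0791, 0.0349 and 0.0525 over 9215 genes, against a mean of -0.0140 over 12 pairs of different mice.

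Named genes were, by rule, the 12 DEGs of smallest adjusted p in each direction, up to 4 DEGs per direction and 3 uncalled abundant genes of each list, sort genes, leading markers and the top 6 interactions. Cd28, Cd83, Cxcl3, Dnajc3, Hilpda, Pdia6 and Pparg were named after their values were seen. Alternatives were limma 3.58.1, DESeq2 1.42.0, other filters and scalings, a mouse block, covariates and leaving out single libraries. Some items are not reported here.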

Additional observations from a re-analysis of the deposited data

Results flagged for a closer look

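In groups of 5 libraries, a library was set apart when its gap to the nearest of the others, as a share of the whole range, exceeded 0.71. Of 117 groups of 5 tested, 26 held such a library, where chance gives about 1 in 20 (5.85 groups) for independent, normally distributed values. The values here were CPM that cannot fall below 0, and some groups share genes or libraries. The 2 counts are therefore no test against chance. Among VAT ST2+ libraries, mouse 3 stood apart for Foxp3 and Il4, with a gap share of 0.757 and 0.722. For Foxp3 it lay above the 150 to 172 CPM of the others, and for Il4 it was at 2.3 CPM, against 0 to 0.639 CPM. Among VAT ST2+ libraries, mouse 2 stood apart for Ikzf2 and Dnajc3, with a gap share of 0.711 and 0.74. For Ikzf2 it was at 769 CPM, against 1054 to 1170 CPM in the others. Among VAT ST2+ libraries, mouse 1 stood apart for Satb1, Hspa5, Lair1, Agr2, Col1a2 and Lum, with a gap share of 0.723, 0.718, 1, 1, 1 and 0.887. For Satb1 it was at 30.8 CPM, against 0.573 to 8.95 CPM in the others. Among VAT ST2+ libraries, mouse 5 stood apart for Hsp90b1, Ltb4r1, Ccr1 and Jchain, with a gap share of 0.803, 0.713, 0.758 and 0.952. For Hsp90b1 it was at 443 CPM, against 337 to 358 CPM in the others.

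Marker sums of single libraries stood apart too. Colon ST2- mouse 2 had a gap share, with its summed level, of 0.817 (2225 CPM) for dendritic cell and MHC class II and 0.872 (5635 CPM) for epithelial markers. VAT ST2+ mouse 5 had a gap share, with its summed level, of 0.951 (1314 CPM) for B and plasma cell and 0.837 (47.9 CPM) for mast cell and granulocyte markers. VAT ST2- mouse 3 had a gap share, with its summed level, of 0.945 (983 CPM) for B and plasma cell, 0.988 (368 CPM) for smooth muscle and glia, 0.867 (538 CPM) for endothelial, 0.953 (224 CPM) for adipocyte and mesothelial, 0.954 (63.5 CPM) for mast cell and granulocyte and 0.929 (15 CPM) for red cell markers. VAT ST2+ mouse 3 had a gap share, with its summed level, of 0.914 (194 CPM) for smooth muscle and glia and 0.924 (25.3 CPM) for red cell markers.

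The tissue difference differed between ST2+ and ST2- Tregs by the interaction test for 13 named genes. The log2 difference was larger (colon minus VAT) in ST2+ cells for S1pr1, Cxcr5, Cd96, Ctss, Hmgn1, Slamf6, Itgb1 and Lair1, by 1.41, 7.48, 1.79, 1.41, 2.07, 1.38, 1.65 and 14 (edgeR adjusted p 0.0044 to 0.0315). The log2 difference was smaller in ST2+ cells for Il2ra, Gm2a, Tmem64, Ccr1 and Il10, by -1.66, -1.34, -1.12, -6.62 and -2.33 (edgeR adjusted p 0.000121 to 0.0326). The Lair1 value is a fitted one against a group with 1 count and is no bound. Of the 18 fits without 1 library, Ctss passed in 6 and Hmgn1 in 7, and with macrophage and epithelial levels as covariates their adjusted p was 0.09 and 0.221.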

How the results depend on the processing

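Of 2153 alternative values for single genes and marker lists, 0 reversed. For called genes and interactions, any change of sign counted as reversed. For genes not called and for marker lists, a change of sign counted only if the alternative value passed its test. Other changes of sign among these were not counted. Of 63 named DEGs, 44 were called in every fit without 1 library in which they were tested, and 17 in every other fit that tested them. Adamdec1 was not tested in the fits without colon ST2+ mouse 1, 3 or 4. Of 20 named genes tested and not called, 7 were called by limma voom with quality weights. With only the libraries compared, 5 were called. The count of ST2+ DEGs was 256 with genes at 1 CPM in 50% of libraries (73.4% higher), 202 by glmTreat (98.0% higher), 1153 by limma voom with quality weights, 95 with macrophage and epithelial levels as covariates (432 higher and 82 lower without covariates once those markers were left out, 78 and 17 with them), 352 with only the libraries compared, and 208 to 407 without 1 library. The ST2- count was 127 with all 70 libraries, 52 by glmTreat, 476 by voom, 115 with the covariates, 98 with only the libraries compared, and 129 to 243 without 1 library. The interaction count was 74 by DESeq2, 19 with all 70 libraries, 6 by glmTreat, 99 by voom, 2 with only the libraries compared, and 13 to 54 without 1 library. No marker sum passed an adjusted p of 0.05 in ST2+ Tregs, and 2 did in ST2- Tregs. These outcomes cannot be compared, because fewer colon libraries entered the ST2+ test. The smallest p of the permutation test was 0.0357 in ST2+ Tregs and 0.0079 in ST2- Tregs.

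With mouse as a replicate block, ST2+ DEGs numbered 741, ST2- DEGs 261 and interactions 33. With mice 1, 3 and 4 and the replicate block, these counts were 268, 11 and 1. The block over all libraries took the call from the Hmgn1 interaction (adjusted p = 0.0522), and apart from this and the block values given with the results it changed no call of a named gene. The fitted groups and genes differ between these settings and the cause of the differences was not tested.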
